A study of Homo sapiens with 12 samples.

Results

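Mitosis and spindle genes encode the proteins that start mitosis, build the spindle, attach the chromosomes to it and divide the cell. The genes described here were 56 genes of these roles, found by their symbol in the annotation of the array. A gene counted as measured when at least 1 of its probes had a detection p-value under 0.05, set against negative-control probes, on all 3 arrays of at least 1 group. Of the 56 genes, 54 were measured, among 10208 genes measured in all and 20044 genes named by a probe. The other two, UBE2C and UBE2S, encode ubiquitin-conjugating enzymes that serve the anaphase-promoting complex. The 2 probes of UBE2C were detected on 1 and 0 of the 12 arrays, and the probe of UBE2S on 0. The members were listed by their known role, but with earlier results of these data known, so the list is not independent of the data.

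The cells were K562, grown from the blast crisis of a chronic myeloid leukaemia and driven by the fusion kinase BCR-ABL1, and dasatinib inhibits ABL and SRC family kinases. The 4 groups of 3 arrays each were the vehicle (0.2% DMSO, 24 h) and dasatinib at 100 nM, harvested after 4 h, 8 h or 24 h. All cells had grown with 10% serum and were treated in medium with 0.1% serum. The vehicle was harvested at 24 h alone, so the effect of dasatinib at 4 h and 8 h and that of the time in low serum cannot be told apart, and 1 cell line was used.

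The median signal per array was 134 to 160 intensity units, and 17175 to 18927 of 47314 probes were detected per array. Arrays of a group correlated at r = 0.989 to 0.992 across the measured genes, which are not independent replicates. Markers of K562 cells that passed the detection filter numbered 9, GATA1, KLF1 and HBG1 among them. Of 18 markers of other blood cells, fibroblasts, epithelium and endothelium, 5 passed (CD3D, CD14, COL1A2, EPCAM and PECAM1). Their summed normalized signal was 5248 to 5712 in DMSO, 5804 to 6761 at 4 h, 5331 to 6016 at 8 h and 2757 to 3116 at 24 h of dasatinib. Against DMSO, the log2 change of CD3D was -0.70 at 8 h and -3.35 at 24 h, and that of COL1A2 was -0.39 and -2.30; their part in the results was not tested. CD3E, COL1A1 and COL3A1, markers of the same cell types, did not pass. Nothing in the labels ties the replicates to separate cultures, and p-values therefore measure only the spread between these samples, which may be technical.

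Entry into mitosis is set off by CDK1 bound to cyclin B, which the CDC25 phosphatases switch on. Kinases of the Polo, Aurora and NEK families then separate the centrosomes and shape the spindle. Its microtubules are moved and shortened by kinesins and caught by kinetochores on the chromosomes. The spindle checkpoint holds the anaphase-promoting complex until all chromosomes are attached, after which that complex destroys securin and cyclin B. Most of these genes are transcribed in G2 and mitosis and kept low in resting cells by complexes such as DREAM.

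Values below are normalized log2 signals per array, and a difference of 1 is 2-fold. A change is a log2 fold change with the standard error (SE) of a linear model fitted with limma to all 12 arrays, with 3 arrays against 3. A gene was called when its p-value, adjusted (Benjamini-Hochberg) over all 10208 genes, was under 0.05. Each gene is represented by its brightest passing probe.

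Mitosis and spindle genes were more often higher than lower after 8 h and after 24 h of dasatinib, by amounts below 2-fold in all but 1 case. At 8 h, 28 of the 54 genes (51.9%) were higher and 0 were lower, where 16.6% of all genes tested were higher and 15.4% lower. At 24 h, 26 genes (48.1%) were higher and 2 (3.7%) lower, against 26.9% and 27.1% of all genes. At 4 h, 3 genes were higher (5.56%, against 5.29% of all genes), a share near the background, and 0 were lower (6.65% of all genes). The median change of the 54 genes was 0.09 at 4 h, 0.32 at 8 h and 0.28 at 24 h, while the median of all genes tested was 0.01, 0.02 and 0.01. With median scaling the members' median was 0.25 at 8 h and 0.13 at 24 h, and that of all genes 0.04 and -0.03. The 3 comparisons share the DMSO arrays.

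Changes at 8 h lay between -0.29 (MAD2L1) and 0.84 (CDC25C), and at 24 h between -0.48 (PLK1) and 1.11 (NUSAP1), the only member past 2-fold. The group mean was lowest in DMSO for 34 of the 54 genes (63.0%), against 30.8% of all genes. Both the 8 h and the 24 h calls were higher for 20 genes (37.0%), against 12.8% of all genes. In a bulk measurement, fewer cells in mitosis and less of an RNA per cell cannot be told apart, nor can more of each. The median over the 54 genes was 10.26, 10.25 and 10.39 on the DMSO arrays, 10.50, 10.39 and 10.43 at 4 h, 10.58, 10.62 and 10.55 at 8 h, and 10.61, 10.51 and 10.45 at 24 h. The 8 h and 24 h arrays therefore all lay above the DMSO arrays.

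**Figure D1:**
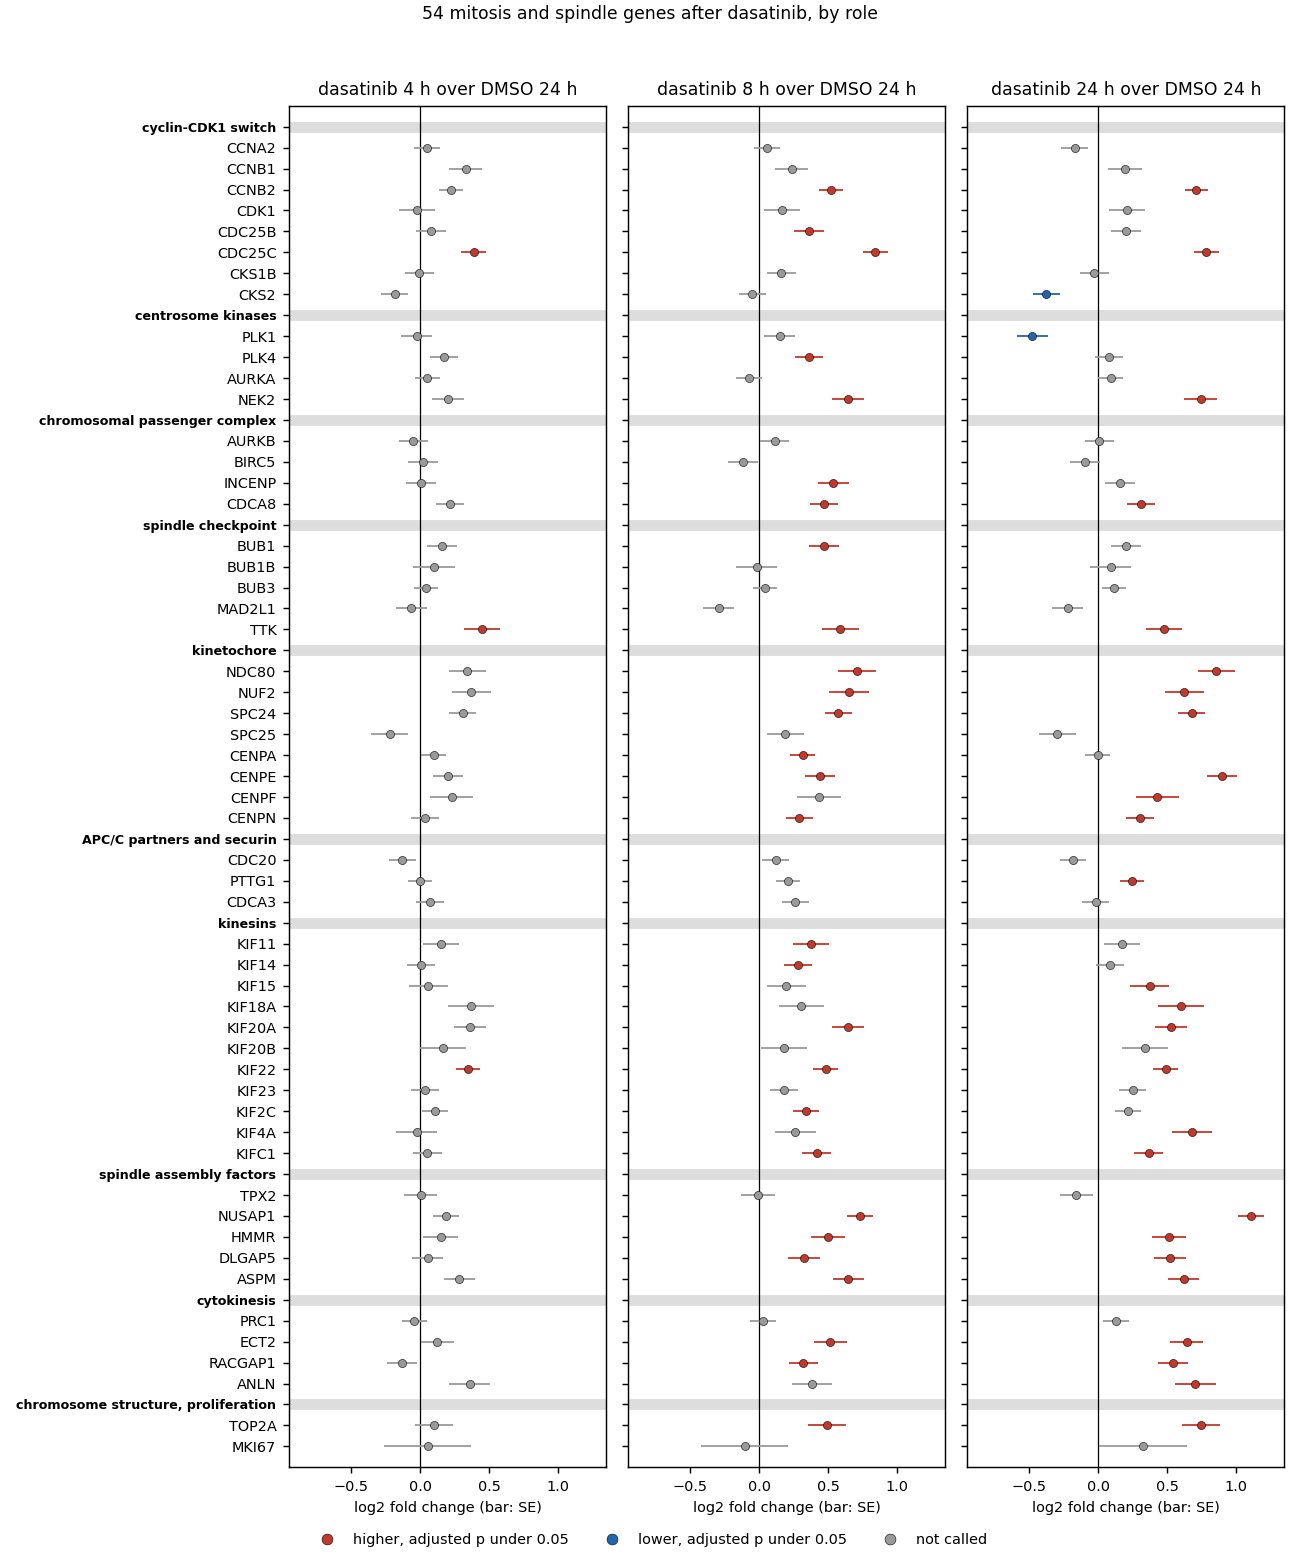
Log2 fold change of each of the 54 measured mitosis and spindle genes over DMSO (x axis) after 4 h, 8 h and 24 h of dasatinib, by role (rows); bars are SE, red and blue mark genes called higher and lower, and grey marks genes not called. Red points number 3, 28 and 26, and the blue points at 24 h are PLK1 and CKS2.

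Between times of exposure, the members called at 8 h against 4 h were all higher, and those called at 24 h against 8 h were more often lower. At 8 h against 4 h, 7 genes (13%) were higher and 0 lower, where 5.98% of all genes were higher and 5.3% lower. At 24 h against 8 h, 3 genes (5.56%) were higher and 8 (14.8%) lower, where 17.5% of all genes were higher and 18.3% lower, so the share of members called lower was not above the background. At 24 h against 4 h, 17 genes (31.5%) were higher and 1, PLK1, was lower, where 23.2% of all genes were higher and 22.6% lower. With arrays scaled by their medians in place of quantile normalization, 19 genes were higher and 1 lower at 8 h against DMSO. At 24 h against DMSO, 19 were higher and 7 lower. The counts were 1 and 12 at 24 h against 8 h, and 9 and 6 at 24 h against 4 h. Under that scaling the median of all genes was -0.07 at 24 h against 8 h and -0.06 at 24 h against 4 h. The members' medians were -0.11 and 0.04. The shares of all genes called under that scaling were not counted.

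**Figure D2:**
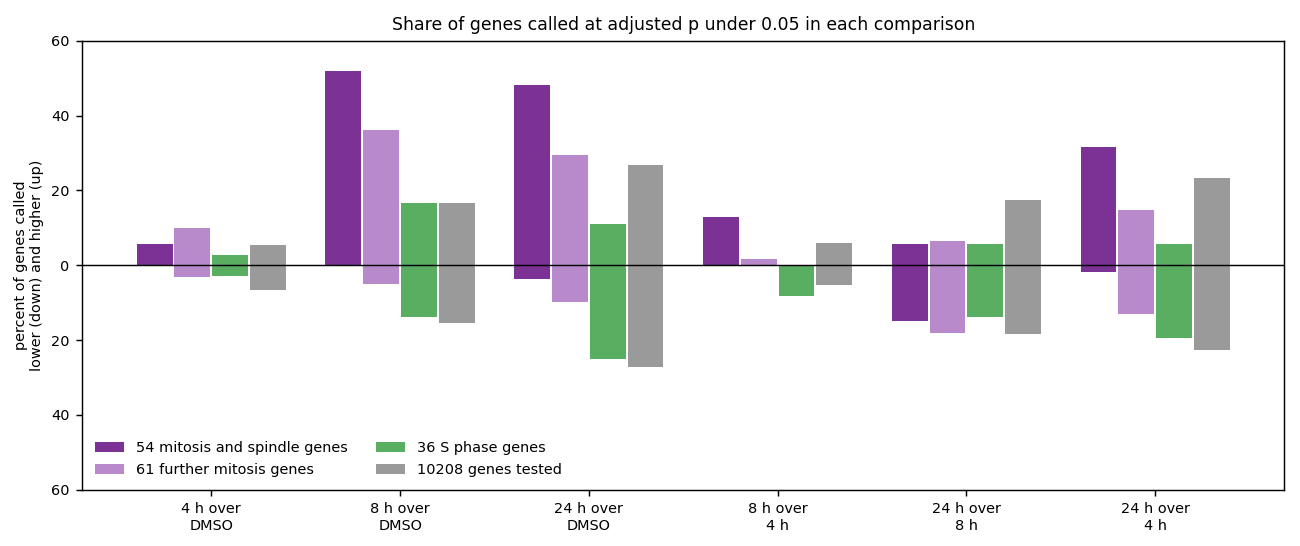
Percent of genes called higher (up) and lower (down) in each of the 6 comparisons for the 54 mitosis and spindle genes, 61 further mitosis genes, 36 S phase genes and all 10208 genes tested. The mitosis and spindle genes stand at 51.9% higher and 0% lower at 8 h over DMSO, against 16.6% and 15.4% of all genes.

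Promoters of mitotic genes are known for the cell cycle homology region (CHR), a site that DREAM and B-MYB complexes bind, and for CCAAT boxes bound by NF-Y. The RefSeq promoter table (GRCh38.p14, 250 bases before the transcript start and 50 from it on) held 48 of the 54 genes in 61 entries. AURKA, BIRC5, BUB3, TTK, TPX2 and RACGAP1 were not matched. The CHR was searched as TTTGAA and the CCAAT box as CCAAT, each on both strands. A variant of the CHR, TTCGAA, was searched separately and is not in the CHR counts. Overlaps between the motifs were not removed. A CHR stood in 63.9% of the members' entries, against 15.2% of all 35116 entries, and in at least 1 entry of 75% of the matched members, against 18.2% of all 27305 genes in the table. A CCAAT box stood in 75.4%, against 34.6% of all. By gene, 18 of 26 members called higher at 8 h against DMSO (69.2%) had an entry with a CHR, and 18 of 22 other members (81.8%) did. By entry, the shares were 55.6% (20 of 36) and 76% (19 of 25), since genes such as CDC25B have several entries. The variant TTCGAA stood in 5 of 36 entries (13.9%) of members called higher at 8 h and in 0 of 25 of the others. Its share of all entries was 1.45%. Among the 5 were both entries of KIF22, whose windows overlap, and the variant was not counted by gene. BUB1, CDC25B and KIF22, called higher at 8 h, held the variant and no TTTGAA. The gap between the groups therefore depends on the form counted. All 8 genes called lower at 24 h against 8 h had an entry with a CHR, in 8 of their 10 entries.

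Shown here are the promoters of the member with the largest rise at 24 h (NUSAP1), of the member with the largest rise between 8 h and 24 h (CENPE) and of the members called lower at 24 h against DMSO (PLK1 and CKS2). Capitals mark a CHR or a CCAAT box on either strand. NUSAP1 lies at chr15:41332631-41332930, plus strand, CENPE at chr4:103198294-103198593, minus strand, PLK1 at chr16:23678639-23678938, plus strand, and CKS2 at chr9:89310945-89311244, plus strand, all in GRCh38.p14.
NUSAP1: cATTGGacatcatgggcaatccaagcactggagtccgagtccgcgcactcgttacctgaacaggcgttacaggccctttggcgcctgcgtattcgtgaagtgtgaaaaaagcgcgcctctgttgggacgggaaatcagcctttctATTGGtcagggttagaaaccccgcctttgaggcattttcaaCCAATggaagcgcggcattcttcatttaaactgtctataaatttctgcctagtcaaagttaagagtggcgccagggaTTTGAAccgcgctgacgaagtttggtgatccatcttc
CENPE: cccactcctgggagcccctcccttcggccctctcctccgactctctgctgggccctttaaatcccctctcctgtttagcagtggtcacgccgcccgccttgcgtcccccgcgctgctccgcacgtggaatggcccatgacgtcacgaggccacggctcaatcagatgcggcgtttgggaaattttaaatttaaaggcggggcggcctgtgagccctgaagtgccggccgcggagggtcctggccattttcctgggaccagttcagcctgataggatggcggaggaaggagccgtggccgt
PLK1: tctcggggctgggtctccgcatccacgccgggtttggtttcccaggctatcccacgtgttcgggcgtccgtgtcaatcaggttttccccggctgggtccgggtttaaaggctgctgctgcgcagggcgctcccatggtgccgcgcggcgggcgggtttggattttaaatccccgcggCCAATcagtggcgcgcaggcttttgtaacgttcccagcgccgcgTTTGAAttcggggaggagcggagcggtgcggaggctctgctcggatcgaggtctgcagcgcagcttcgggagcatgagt
CKS2: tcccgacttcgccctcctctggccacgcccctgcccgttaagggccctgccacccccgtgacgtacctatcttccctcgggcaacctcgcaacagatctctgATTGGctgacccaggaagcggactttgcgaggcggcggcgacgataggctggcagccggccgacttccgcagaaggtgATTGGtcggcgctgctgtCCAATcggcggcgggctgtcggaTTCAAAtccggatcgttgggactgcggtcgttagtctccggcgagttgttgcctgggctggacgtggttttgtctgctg
The CHR began at base -29 from the transcript start in both PLK1 and CKS2, on the plus strand in PLK1 and on the minus strand in CKS2. In NUSAP1 it began at base 13, within the transcript. CENPE held neither motif in this window. CDC25C, with the largest rise at 8 h, has 4 entries, 2 of which held a CHR.

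Among the 8 genes of the cyclin-CDK1 switch, the phosphatase CDC25C and cyclin B2 rose, while CDK1 and cyclin B1 were not called in any of the 6 comparisons. At 8 h, 3 of the 8 genes were higher (CCNB2, CDC25B and CDC25C; 37.5%, against 16.6% of all genes) and 0 lower. At 24 h, 2 were higher (CCNB2 and CDC25C; 25%, against 26.9% of all genes, so not above the background) and CKS2 was lower. Counts within the other roles are to be read against the same shares of all genes, and each role held only 2 to 11 measured genes. CDC25C, which removes the inhibitory phosphates from CDK1, had signals of 9.06, 8.84 and 9.02 in DMSO, 9.36, 9.39 and 9.33 at 4 h, 9.77, 9.89 and 9.78 at 8 h, and 9.78, 9.77 and 9.71 at 24 h of dasatinib. Every dasatinib array lay above every DMSO array, and those at 8 h and 24 h above those at 4 h. The change against DMSO was 0.39 at 4 h (SE 0.09, adjusted p = 0.0152), 0.84 at 8 h (adjusted p = 3.05e-05) and 0.78 at 24 h (adjusted p = 1.49e-05). Its other two passing probes gave 0.83 and 0.93 at 8 h and 0.90 and 0.79 at 24 h. The call at 4 h was lost without DMSO array B (adjusted p = 0.0601).

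CCNB2, the cyclin B of the Golgi and cytoplasm, had signals of 11.38, 11.38 and 11.31 in DMSO, 11.58, 11.66 and 11.50 at 4 h, 11.90, 11.89 and 11.85 at 8 h, and 12.09, 11.99 and 12.13 at 24 h. The groups did not overlap at any step, and the change against DMSO was 0.52 at 8 h (SE 0.09, adjusted p = 0.000659) and 0.71 at 24 h (adjusted p = 2.16e-05). CCNB1, the main mitotic cyclin, had signals of 9.53, 9.56 and 9.57 in DMSO, 9.91, 10.10 and 9.64 at 4 h, 9.71, 9.95 and 9.70 at 8 h, and 9.74, 9.83 and 9.67 at 24 h. All its dasatinib arrays lay above the DMSO arrays, but its changes of 0.33 (SE 0.12), 0.24 and 0.19 were not called (adjusted p = 0.104, 0.157 and 0.195). CDK1 had signals of 11.42, 11.45 and 11.38 in DMSO, 11.69, 11.30 and 11.20 at 4 h, 11.42, 11.62 and 11.71 at 8 h, and 11.76, 11.56 and 11.56 at 24 h. The 4 h arrays of CDK1 lay on both sides of DMSO, and its change at 24 h was 0.21 (SE 0.13, adjusted p = 0.196). CCNA2, the cyclin of S phase and G2, was 11.57, 11.54 and 11.56 at 24 h of dasatinib, against 11.75, 11.80 and 11.63 in DMSO. The difference of -0.17 was not called (adjusted p = 0.154). It was called lower with median scaling (adjusted p = 0.00699) and in the deposited values (adjusted p = 0.049).

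CKS2, a small subunit of the CDK1 complex, had signals of 12.33, 12.26 and 12.23 in DMSO, 12.17, 11.99 and 12.11 at 4 h, 12.30, 12.19 and 12.18 at 8 h, and 11.75, 11.99 and 11.95 at 24 h. The 24 h arrays lay below those of DMSO and of 8 h, with a change of -0.38 against DMSO (SE 0.10, adjusted p = 0.00583) and -0.33 against 8 h (adjusted p = 0.0201). Its other passing probe gave -0.57 and -0.55. The call against 8 h was lost without 24 h array A (adjusted p = 0.0893) or 8 h array A. Its paralog CKS1B was not called (change of -0.03 at 24 h against DMSO). CDC25B, a further CDK1-activating phosphatase, was higher by 0.36 at 8 h (adjusted p = 0.0251). That call was lost without 8 h array B (adjusted p = 0.0949), without 3 other arrays left out singly and under median scaling.

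Of the 4 centrosome kinases, NEK2 rose, PLK1 fell at 24 h and AURKA was not called. PLK1, the Polo kinase of mitotic entry and spindle assembly, had signals of 9.26, 9.21 and 9.36 in DMSO, 9.13, 9.42 and 9.21 at 4 h, 9.30, 9.48 and 9.50 at 8 h, and 8.85, 8.91 and 8.63 at 24 h. Its 24 h arrays were the 3 lowest of the 12, and the arrays of the other groups overlapped. PLK1 was the only member called lower at 24 h against each of the other groups, where 13% of all genes were. The changes were -0.48 against DMSO (SE 0.11, adjusted p = 0.00334), -0.63 against 8 h (adjusted p = 0.00115) and -0.45 against 4 h (adjusted p = 0.00586). All 3 calls held in each of the 20 alternative settings described under the processing.

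NEK2, which loosens the link between centrosomes, had signals of 11.06, 11.06 and 10.999 in DMSO, 11.38, 11.29 and 11.06 at 4 h, 11.68, 11.79 and 11.59 at 8 h, and 11.88, 11.89 and 11.58 at 24 h. The 8 h and 24 h arrays all lay above the other groups, with changes against DMSO of 0.64 (SE 0.12, adjusted p = 0.00126) and 0.74 (adjusted p = 0.000179). Its other probe gave 0.65 at 8 h and 0.38 at 24 h. AURKA, the Aurora kinase of the spindle poles, had signals between 11.70 and 11.97 on all 12 arrays, with 11.95, 11.93 and 11.80 at 24 h of dasatinib against 11.75, 11.81 and 11.84 in DMSO. PLK4, which starts centriole duplication, had signals of 9.64, 9.76 and 9.79 at 8 h of dasatinib against 9.35, 9.21 and 9.54 in DMSO. Its change of 0.36 was called (adjusted p = 0.0175), but not without DMSO array B (adjusted p = 0.0716), 8 h array B or 8 h array C, nor under median scaling. At 24 h PLK4 was 9.52, 9.36 and 9.46, lower than at 8 h by 0.28 (SE 0.10, adjusted p = 0.0465), a call lost on leaving out any of 10 arrays singly.

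The chromosomal passenger complex corrects faulty attachments of chromosomes and then guides cytokinesis. Its scaffold INCENP and its subunit CDCA8 (borealin) were higher at 8 h, while its kinase AURKB and its subunit BIRC5 (survivin) were not called. INCENP had signals of 8.76, 8.96 and 9.06 in DMSO, 9.02, 8.84 and 8.94 at 4 h, 9.33, 9.63 and 9.44 at 8 h, and 9.03, 9.15 and 9.08 at 24 h. The 8 h arrays stood above all others, which lay between 8.76 and 9.15, with a change at 8 h of 0.54 against DMSO (SE 0.11, adjusted p = 0.00295) and 0.53 against 4 h (adjusted p = 0.0101). At 24 h INCENP was lower than at 8 h by 0.38 (adjusted p = 0.0183), a call lost without 8 h array B (adjusted p = 0.0771) or 24 h array A. CDCA8 was 11.08, 10.85 and 10.95 at 8 h and 10.89, 10.66 and 10.82 at 24 h of dasatinib, against 10.35, 10.56 and 10.54 in DMSO. Neither group overlapped DMSO, and the changes were 0.47 (adjusted p = 0.004) and 0.31 (adjusted p = 0.0229). The 24 h call was lost under median scaling (adjusted p = 0.447), without 24 h array A or C and without DMSO array A. AURKB was 10.45, 10.40 and 10.18 at 24 h of dasatinib, against 10.23, 10.39 and 10.38 in DMSO. BIRC5 was 10.84, 10.86 and 10.64 at 24 h of dasatinib, against 10.80, 10.86 and 10.98 in DMSO, and its arrays overlapped. The dimmer probe of BIRC5 gave -0.45 at 24 h (adjusted p = 0.00582 over 13397 probes), so the probes of this gene differed in their call.

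Of the 5 spindle checkpoint genes, the kinases BUB1 and TTK were higher at 8 h, and BUB1B, BUB3 and MAD2L1 were not called in any comparison. TTK, the kinase that starts checkpoint signalling at the kinetochore, had signals of 10.28, 9.81 and 10.01 in DMSO, 10.64, 10.37 and 10.43 at 4 h, 10.69, 10.64 and 10.53 at 8 h, and 10.67, 10.49 and 10.37 at 24 h. All 9 dasatinib arrays lay above the DMSO arrays and overlapped with each other. The changes were 0.45 at 4 h (SE 0.13, adjusted p = 0.0457), 0.59 at 8 h (adjusted p = 0.00501) and 0.48 at 24 h (adjusted p = 0.00885). The 4 h call was lost on leaving out any of 10 arrays singly (adjusted p up to 0.156), and the 24 h call under median scaling (adjusted p = 0.0781). BUB1 was 11.60, 11.44 and 11.47 at 8 h of dasatinib against 11.14, 11.02 and 10.95 in DMSO, a rise of 0.47 (SE 0.11, adjusted p = 0.0058), and 11.16, 11.42 and 11.13 at 24 h. BUB1B, a subunit of the checkpoint's inhibitor of CDC20, was 8.25, 8.68 and 8.23 at 24 h of dasatinib against 8.45, 8.26 and 8.18 in DMSO, with overlapping arrays. MAD2L1, another subunit of that inhibitor, was 10.56, 10.49 and 10.43 at 8 h of dasatinib against 10.85, 10.87 and 10.64 in DMSO. The difference of -0.29 was not called (SE 0.11, adjusted p = 0.0632). It was called lower in some alternative settings, with adjusted p from 0.0177 (median scaling) to 0.0481 (offset of 50). Leaving out 4 h array B or DMSO array C also gave that call.

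The probes of BUB3, a checkpoint protein that also escorts BUB1, gave opposite calls at 24 h against DMSO. Its brightest probe changed by 0.11 (SE 0.09) and was not called. Another probe rose by 0.58 (SE 0.21, adjusted p = 0.0353 over 13397 probes), and a probe annotated to a different RefSeq transcript fell by 0.74 (SE 0.11, adjusted p = 0.000154). It was the only one of the 19 members with several passing probes whose probes were called in opposite directions in any comparison.

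Most kinetochore genes rose at 8 h and 24 h, and SPC25 was called against DMSO at neither time. At 8 h, 6 of the 8 genes were higher (NDC80, NUF2, SPC24, CENPA, CENPE and CENPN), and at 24 h 6 were (CENPF in place of CENPA), with 0 lower at either time. That is 75% at each time, against 16.6% of all genes at 8 h and 26.9% at 24 h. NDC80, NUF2, SPC24 and SPC25 encode the subunits of the NDC80 complex, which grips microtubules. NDC80 had signals of 9.96, 9.71 and 9.91 in DMSO, 10.43, 9.96 and 10.22 at 4 h, 10.54, 10.61 and 10.56 at 8 h, and 10.68, 10.94 and 10.53 at 24 h. The 8 h and 24 h arrays all lay above the DMSO and 4 h arrays, with changes against DMSO of 0.71 (SE 0.14, adjusted p = 0.00197) and 0.86 (adjusted p = 0.000205). NUF2 rose by 0.65 and 0.62 and SPC24 by 0.57 and 0.68 at 8 h and 24 h.

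SPC25, in the same complex, had signals of 10.05, 10.20 and 10.51 in DMSO, 10.02, 10.13 and 9.95 at 4 h, 10.49, 10.51 and 10.34 at 8 h, and 10.15, 9.98 and 9.75 at 24 h. Its DMSO arrays spanned 10.05 to 10.51, overlapping both, and neither change against DMSO was called (0.19 at 8 h, adjusted p = 0.315, and -0.30 at 24 h, adjusted p = 0.0832). At 24 h it was lower than at 8 h by 0.49 (SE 0.13, adjusted p = 0.0145), a call lost without 24 h array C (adjusted p = 0.0629). Its dimmer probe gave -1.02 at 24 h against DMSO (adjusted p = 0.0178 over 13397 probes). At 24 h against DMSO, SPC25 was called lower in some alternative settings. There its adjusted p ran from 0.00645 (mean of passing probes) to 0.0444 (without 24 h array A). In the main fit at 24 h, NDC80, NUF2 and SPC24 were called higher and SPC25 was not called, and the difference between the subunits was not tested.

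CENPE, the kinetochore kinesin that carries chromosomes to the spindle equator, had signals of 9.28, 9.14 and 9.37 in DMSO, 9.63, 9.36 and 9.42 at 4 h, 9.80, 9.64 and 9.69 at 8 h, and 10.29, 10.07 and 10.13 at 24 h. Each later group lay above the one before it, except that 4 h overlapped DMSO. The changes were 0.44 at 8 h against DMSO (SE 0.11, adjusted p = 0.00843), 0.90 at 24 h against DMSO (adjusted p = 2.23e-05) and 0.45 at 24 h against 8 h (adjusted p = 0.00658). Its other probe gave 0.61 at 24 h against DMSO and 0.34 at 24 h against 8 h. CENPA, the histone H3 variant that marks centromeres, was 10.60, 10.71 and 10.64 at 8 h and 10.43, 10.22 and 10.34 at 24 h of dasatinib, against 10.37, 10.23 and 10.40 in DMSO. Its 8 h arrays stood above the rest, and the rise of 0.32 at 8 h (adjusted p = 0.0194) was lost under median scaling (adjusted p = 0.08), without 8 h array B and without DMSO array B. CENPN, which binds CENPA nucleosomes, rose by 0.29 at 8 h (adjusted p = 0.0427) and 0.30 at 24 h (adjusted p = 0.022), and CENPF, a farnesylated outer kinetochore protein, by 0.43 at 24 h (adjusted p = 0.0366). The 24 h call of CENPF was lost without 24 h array A (adjusted p = 0.127) and without each of 4 other arrays. The 8 h call of CENPN was lost without each of 8 arrays, under median scaling and with no detection filter. Its 24 h call was lost without 24 h array C, without DMSO array A and under median scaling (adjusted p = 0.364).

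**Figure D3:**
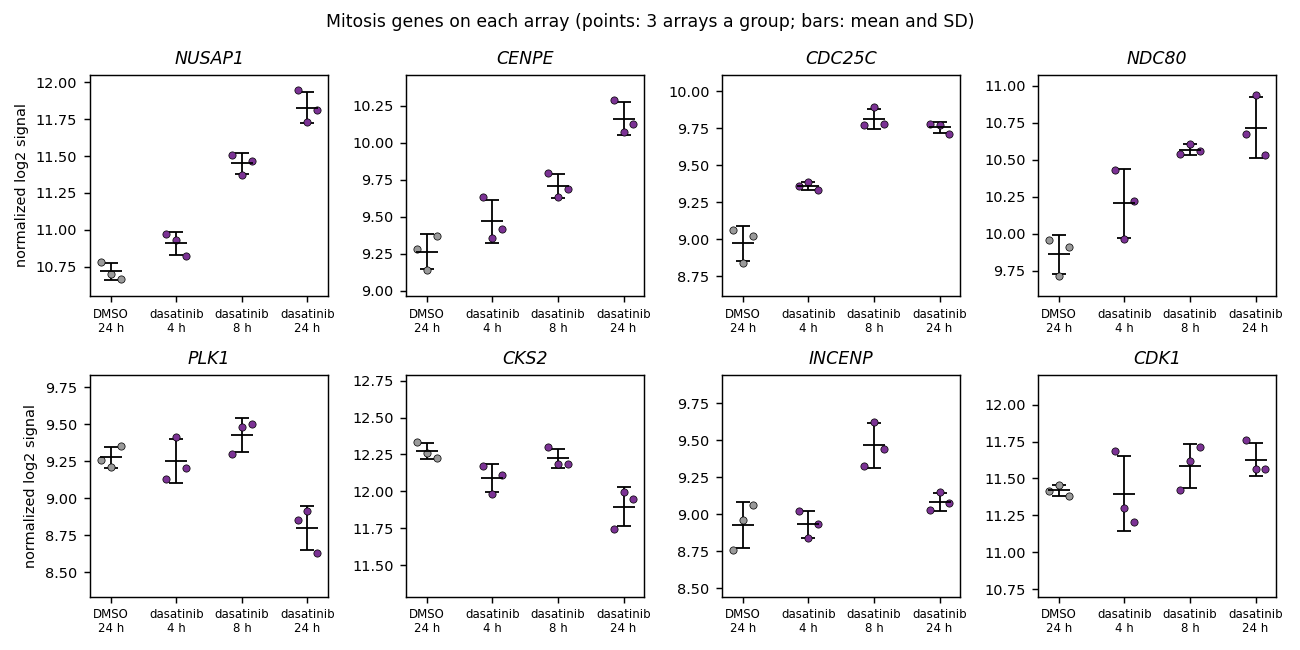
Normalized log2 signal (y axis, each panel 1.5 units tall) of 8 mitosis genes on each array in DMSO and after 4 h, 8 h and 24 h of dasatinib; points are arrays and bars the mean and SD of 3. NUSAP1 stands at 11.73 to 11.94 at 24 h and 10.67 to 10.79 in DMSO, and PLK1 at 8.63 to 8.91 at 24 h and 9.21 to 9.36 in DMSO.

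Of the 3 measured partners and substrates of the anaphase-promoting complex, 0 were called against DMSO at 8 h and 1, PTTG1, at 24 h. CDC20, which activates the complex at anaphase, had signals of 13.08, 13.19 and 13.27 in DMSO, 13.07, 13.11 and 12.97 at 4 h, 13.33, 13.24 and 13.32 at 8 h, and 13.12, 12.89 and 12.97 at 24 h. Its 24 h arrays overlapped DMSO and lay below 8 h, by 0.30 (SE 0.10, adjusted p = 0.0261), a call lost without 24 h array B (adjusted p = 0.0939), 24 h array C, or 8 h array A or C. PTTG1 (securin, which holds back the protease separase) was 12.90, 12.78 and 12.76 at 24 h of dasatinib against 12.52, 12.61 and 12.57 in DMSO. The rise of 0.24 (SE 0.09, adjusted p = 0.0348) was lost under median scaling (adjusted p = 0.276) and without each of 5 arrays. CDCA3 was 8.98, 9.24 and 9.17 at 24 h of dasatinib, against 9.41, 9.39 and 9.43 at 8 h, lower by 0.28 (adjusted p = 0.0424), a call lost without each of 7 arrays (adjusted p up to 0.167). Against DMSO, its change was 0.26 at 8 h (adjusted p = 0.0606).

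Among the 11 kinesins, 6 were higher at 8 h (KIF11, KIF14, KIF20A, KIF22, KIF2C and KIFC1) and 6 at 24 h (KIF15, KIF18A, KIF20A, KIF22, KIF4A and KIFC1), and 0 were lower at either time. That is 54.5% at each time, against 16.6% of all genes at 8 h and 26.9% at 24 h. All 11 changes were above 0 at both times, between 0.18 (KIF20B) and 0.64 (KIF20A) at 8 h and between 0.08 (KIF14) and 0.68 (KIF4A) at 24 h. KIF20A, a motor of the central spindle, had signals of 10.03, 10.11 and 10.33 in DMSO, 10.53, 10.62 and 10.41 at 4 h, 10.90, 10.68 and 10.82 at 8 h, and 10.69, 10.81 and 10.54 at 24 h. Every dasatinib array was above every DMSO array, with changes of 0.64 at 8 h (SE 0.11, adjusted p = 0.00115) and 0.53 at 24 h (adjusted p = 0.00198). KIF4A, a chromosome-borne motor, had signals of 8.997, 8.91 and 8.93 in DMSO, 9.05, 9.05 and 8.66 at 4 h, 9.47, 9.06 and 9.09 at 8 h, and 9.74, 9.75 and 9.40 at 24 h. It was higher at 24 h against DMSO by 0.68 (SE 0.15, adjusted p = 0.00186) and against 8 h by 0.42 (adjusted p = 0.0429), although its 24 h and 8 h arrays overlapped. The call against 8 h was lost without each of 7 arrays (adjusted p up to 0.138) and under median scaling.

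KIF22, a motor that pushes chromosome arms, was 11.04, 10.97 and 11.13 at 4 h of dasatinib against 10.69, 10.73 and 10.69 in DMSO. That rise of 0.35 (SE 0.09, adjusted p = 0.0244) was lost without 4 h array C (adjusted p = 0.0869) or 4 h array A, or without any DMSO array. At 8 h and 24 h its changes were 0.48 and 0.49. KIF11, the motor that pushes spindle poles apart, and KIF14, of cytokinesis, were higher at 8 h by 0.37 (adjusted p = 0.0455) and 0.28 (adjusted p = 0.0494), close to the threshold, and each call was lost in over 10 of the 20 alternatives. KIF2C, which dismantles microtubule ends, was higher at 8 h by 0.34 (adjusted p = 0.0163), a call lost without 8 h array C and under median scaling (adjusted p = 0.0731). KIFC1, a motor that draws poles together, rose by 0.42 at 8 h and 0.37 at 24 h, the 24 h call being lost under median scaling (adjusted p = 0.292) and without 24 h array A. KIF18A, which damps chromosome movement, was higher at 24 h by 0.60 (SE 0.17, adjusted p = 0.0086), and KIF15 by 0.37 (adjusted p = 0.0414), a call lost without each of 6 arrays, all 3 of 24 h among them (adjusted p up to 0.177 without DMSO array B), under median scaling and with no detection filter. KIF20B and KIF23 were not called.

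Spindle assembly factors rose at both 8 h and 24 h in 4 of 5 cases, and TPX2 was the exception. NUSAP1, which bundles microtubules near chromatin, had signals of 10.79, 10.70 and 10.67 in DMSO, 10.97, 10.93 and 10.82 at 4 h, 11.51, 11.37 and 11.47 at 8 h, and 11.94, 11.73 and 11.81 at 24 h. The groups were stacked without overlap, from DMSO to 24 h. Against DMSO it was 1.66-fold higher at 8 h (0.73, SE 0.09, adjusted p = 0.000108) and 2.16-fold higher at 24 h (1.11, adjusted p = 1.15e-06), and its other probe gave 0.83 and 1.14. The further rise at 24 h against 8 h was 0.38 (adjusted p = 0.00777) and was lost under median scaling (adjusted p = 0.0618). ASPM, a spindle pole protein, rose by 0.65 and 0.62 at 8 h and 24 h, HMMR, a partner of TPX2 at the poles, by 0.50 and 0.51, and DLGAP5, which steadies kinetochore fibres, by 0.33 and 0.52. The 8 h call of DLGAP5 (adjusted p = 0.0477) was lost without each of 9 arrays, under median scaling and with no detection filter. TPX2, the activator of Aurora A, was 10.00, 9.90 and 10.24 at 24 h of dasatinib against 10.00, 10.27 and 10.33 in DMSO, a difference of -0.16 that was not called.

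Of the 4 cytokinesis genes, ECT2 and RACGAP1 were higher at 8 h and, with ANLN, at 24 h, while PRC1 was not called. ECT2, the exchange factor that activates RhoA at the cleavage furrow, had signals of 9.33, 9.13 and 9.39 in DMSO, 9.54, 9.28 and 9.39 at 4 h, 9.85, 9.76 and 9.78 at 8 h, and 9.93, 10.12 and 9.73 at 24 h. Its 8 h and 24 h arrays lay above both other groups, with changes against DMSO of 0.52 (SE 0.12, adjusted p = 0.00617) and 0.64 (adjusted p = 0.000643). RACGAP1, the centralspindlin subunit that binds ECT2, rose by 0.32 and 0.54. Its 8 h call (adjusted p = 0.0382) was lost without 8 h array B (adjusted p = 0.134), without each of 4 other arrays, under median scaling and with no detection filter. ANLN, the furrow scaffold anillin, was 9.72, 9.62 and 9.39 at 24 h of dasatinib against 9.07, 8.59 and 8.95 in DMSO, a rise of 0.71 (SE 0.15, adjusted p = 0.00154). PRC1, which bundles the microtubules of the midzone, changed by 0.13 at 24 h (adjusted p = 0.268).

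TOP2A, the topoisomerase that untangles sister chromatids, had signals of 11.97, 11.75 and 11.90 in DMSO, 12.21, 11.85 and 11.86 at 4 h, 12.27, 12.59 and 12.24 at 8 h, and 12.65, 12.76 and 12.44 at 24 h. The 8 h and 24 h arrays lay above the other groups, with changes against DMSO of 0.49 (SE 0.14, adjusted p = 0.017) and 0.75 (adjusted p = 0.000618). The 8 h call was lost without 8 h array B (adjusted p = 0.0729) or DMSO array B. MKI67, the gene of the proliferation marker Ki-67, had a dim probe that was detected on 9 of the 12 arrays. Its signals were 5.75, 5.77 and 6.29 at 24 h of dasatinib against 5.22, 6.43 and 5.19 in DMSO, and with an SE of 0.32 its change of 0.32 was not called (adjusted p = 0.416).

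**Figure D4:**
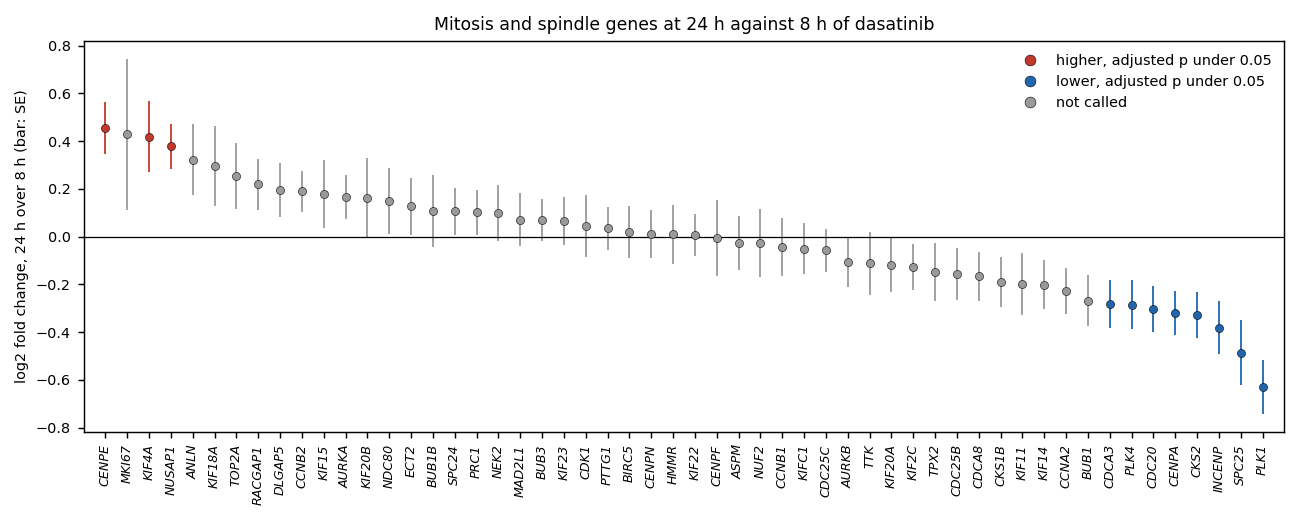
Log2 fold change of the 54 genes at 24 h over 8 h of dasatinib (y axis; bars are SE), sorted from highest to lowest. CENPE, KIF4A and NUSAP1 (red) were called higher, and 8 genes from CDCA3 to PLK1 (blue) lower.

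The members called at 24 h against 8 h came from several roles, with none among the genes of the spindle checkpoint, cytokinesis or chromosome structure and proliferation. The 8 lower genes were PLK1 (-0.63), SPC25 (-0.49), INCENP (-0.38), CKS2 (-0.33), CENPA (-0.32), CDC20 (-0.30), PLK4 (-0.28) and CDCA3 (-0.28). Of these, PLK4, INCENP and CENPA were also called higher at 8 h against DMSO (5.56% of members, against 2.53% of all genes with both calls). Both comparisons share the 8 h arrays, so high values on those arrays favour both calls. The count of lower genes was 4 without 8 h array A, without 8 h array B, without 24 h array A and without 24 h array C. At 8 h against 4 h, the 7 higher genes were NUSAP1 (0.54), INCENP (0.53), RACGAP1 (0.45), CDC25C (0.45), NEK2 (0.44), KIFC1 (0.37) and CCNB2 (0.30). That count was 3 without 4 h array B, 4 h array C, 8 h array A or 8 h array B.

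In all, 39 members were called in at least 1 of the 6 comparisons and 15 in none (27.8%, against 32.4% of all genes). The 15 were CCNA2, CCNB1, CDK1, CKS1B, AURKA, AURKB, BIRC5, BUB1B, BUB3, MAD2L1, KIF20B, KIF23, TPX2, PRC1 and MKI67. A gene that was not called is not shown to be unchanged.

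Among 61 measured mitosis genes beyond the members, 22 were higher (36.1%, against 16.6% of all genes) and 3 lower (4.92%, against 15.4%) than in DMSO at 8 h. At 24 h, 18 were higher (29.5%, against 26.9% of all genes, near the background) and 6 lower (9.84%, against 27.1%), with medians of 0.18 at 8 h and 0.19 at 24 h. CKAP2L, a spindle pole protein, was higher by 1.23 at 8 h and 0.96 at 24 h, and CENPU, a kinetochore protein, by 0.89 at 24 h. MIS18A, which helps load CENPA, and DSN1, of the kinetochore's MIS12 complex, each rose by 0.75 at 8 h. CEP55, which recruits the abscission machinery in the last step of cytokinesis, fell by 1.53 at 24 h (SE 0.11, adjusted p = 4.53e-07). Of 21 measured genes of condensin, cohesin and the anaphase-promoting complex, 7 were higher (33.3%) and 2 lower (9.52%) at 8 h, and 9 higher (42.9%) and 4 lower (19%) at 24 h, beside the shares of all genes above. The cohesin genes STAG2 and RAD21 rose by 1.09 and 0.70 and the condensin II gene NCAPG2 by 0.82 at 24 h, and the condensin gene SMC4 rose by 0.56 at 8 h. Subunits of the anaphase-promoting complex, named after their values were seen, were called both ways at 24 h: ANAPC1, ANAPC5, ANAPC7 and ANAPC10 were lower, and CDC16 and ANAPC4 were higher, by 0.46 and 0.35.

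Of 22 measured regulators of mitotic transcription, 5 were higher (22.7%, against 16.6% of all genes) and 2 lower (9.09%, against 15.4%) at 8 h. At 24 h, 6 were higher (27.3%, against 26.9% of all genes, which is the background) and 2 lower (9.09%, against 27.1%). E2F2, an activator E2F, rose by 0.86 at 8 h and 1.53 at 24 h, and RBL2 (p130, the pocket protein of DREAM) by 0.61 and 0.91. TFDP2, a dimer partner of E2F factors, rose by 0.90 at 24 h. FOXM1, a factor that drives G2 and mitosis genes, rose by 0.36 at 8 h and 0.28 at 24 h (adjusted p = 0.0119 and 0.0227) and was named after its values were seen. E2F5, a partner of p130, fell by 0.92 and 0.76. Of 36 measured S phase genes, 6 were higher (16.7%) and 5 lower (13.9%) at 8 h, both near the shares of all genes. At 24 h, 4 were higher (11.1%, against 26.9% of all genes) and 9 lower (25%, against 27.1%, near the background), with medians of -0.02 at 8 h and -0.05 at 24 h. GINS3, a subunit of the replicative helicase, fell by 0.77 and CHAF1A, of the chromatin assembly factor, fell by 0.67 at 8 h. The kinase CDC7 rose by 0.67 at 8 h and 0.95 at 24 h and thymidine kinase TK1 by 0.87 at 24 h, while the G1/S cyclin CCNE1 fell by 0.77 at 24 h. The lists are described by their counts, and the difference between them was not tested.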

How the data were processed

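RNA of 12 samples was hybridised to Illumina BeadChip arrays, 1 array a sample and 3 a group. Per the file headers, the deposited file that was not normalized holds a mean signal intensity and a detection p-value for each probe and array; the scanner software and any background subtraction are not given in the sources used here. The deposited value table looks like quantile-normalized log2 values, judged from its columns, and its processing is not stated; it served as an alternative. Columns marked BMS in the deposited intensity table were read as dasatinib, and arrays are named by the column letters A, B and C.

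Intensities were corrected against negative controls inferred from the detection p-values, quantile-normalized and log2-transformed with neqc (limma 3.58.1, R 4.3.3, offset 16). Of 47314 probes, 17625 passed detection and 13397 of these named 1 gene; each of 10208 genes kept its brightest passing probe. Probe genes came from the platform annotation, in which 30108 probes had 1 gene symbol, 8 several and 17198 none. One mean per group was fitted with lmFit and eBayes, with Benjamini-Hochberg adjustment over all genes and calls at 0.05, for 6 comparisons. The fit was tested on simulated data. The number of arrays limits the precision.

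Values on each array were given for anchor genes (such as CDK1, PLK1 and MKI67), for the member with the largest change in each role at 8 h, at 24 h and between them, and for members whose probes disagreed; further members were given values where they illustrate a role. From each other list, the 3 called genes with the largest changes at 8 h and at 24 h against DMSO were named. The members, lists and roles were chosen with earlier results of these data known. The 20 alternatives were 8 settings (no background correction, an offset of 50, the deposited table, no detection filter, the mean of passing probes, median scaling, a mean-variance trend and a replicate block) and each of the 12 arrays left out.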

Additional observations from a re-analysis of the deposited data

Results flagged for a closer look

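RNA levels differed between the harvest times of dasatinib for 25 members, each called in at least 1 of the 3 contrasts between these times. These groups also differ in hours in low serum, with no vehicle at 4 h or 8 h, so these effects cannot be told apart. The shares of all genes in each contrast are given above, and the share called in at least 1 of the 3 was not counted. At 24 h against 8 h, members were called less often than all genes in both directions. The test was the 3 contrasts between times in the limma fit to all 12 arrays, with adjusted p-values over 10208 genes. The DMSO arrays enter the spread of that fit, and CCNB2 and KIFC1 at 8 h against 4 h, PLK4, CDCA3 and KIF4A at 24 h against 8 h and CENPN at 24 h against 4 h each lost their call without at least 1 DMSO array. At 8 h against 4 h, 7 genes were higher: NUSAP1 by 0.54, INCENP by 0.53, RACGAP1 by 0.45, CDC25C by 0.45, NEK2 by 0.44, KIFC1 by 0.37 and CCNB2 by 0.30 on the log2 scale (3 arrays each; adjusted p = 0.00365, 0.0101, 0.0181, 0.00825, 0.0311, 0.0462 and 0.0425). Of these calls, those of CDC25C, INCENP and NUSAP1 held in all 20 alternatives.

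At 24 h against 8 h, CENPE was higher by 0.45, KIF4A by 0.42 and NUSAP1 by 0.38 (adjusted p = 0.00658, 0.0429 and 0.00777). The changes of the lower genes were -0.63 for PLK1, -0.49 for SPC25, -0.38 for INCENP, -0.33 for CKS2, -0.32 for CENPA, -0.30 for CDC20, -0.28 for PLK4 and -0.28 for CDCA3 (adjusted p = 0.00115, 0.0145, 0.0183, 0.0201, 0.0166, 0.0261, 0.0465 and 0.0424). PLK1 and CENPE were the calls that held in all 20 alternatives.

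At 24 h against 4 h, 17 genes were higher, by 0.92 for NUSAP1, 0.71 for KIF4A, 0.69 for CENPE, 0.67 for RACGAP1, 0.65 for TOP2A, 0.54 for NEK2, 0.52 for ECT2, 0.51 for NDC80, 0.49 for CCNB2, 0.47 for DLGAP5, 0.40 for CDC25C, 0.37 for SPC24, 0.36 for HMMR, 0.34 for ASPM, 0.31 for KIFC1, 0.27 for CENPN and 0.25 for PTTG1. The change of PLK1 was -0.45. Adjusted p-values lay between 8.56e-06 (NUSAP1) and 0.0459 (CENPN), and 10 of the 18 calls held in all 20 alternatives.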

How the results depend on the processing

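Of the calls against DMSO, 18 of 28 at 8 h, 21 of 28 at 24 h and 0 of 3 at 4 h held in all 20 alternatives, as did 3 of 7 at 8 h against 4 h, 2 of 11 at 24 h against 8 h and 10 of 18 at 24 h against 4 h. No called member changed sign in any of them. Counts that moved by over 1.5 times are given here. The shares of all genes called were not counted in these settings, and the cause was not tested. Genes higher at 4 h against DMSO (3) numbered 6 without background correction, 5 with the offset of 50, 6 in the deposited table and 5 with the trend, and 1 was lower with the mean of probes. At 8 h against DMSO 1 gene (MAD2L1), not 0, was lower without background correction, with the offset of 50, in the deposited table, with median scaling and with the trend. Genes lower at 24 h against DMSO (2) numbered 4 in the deposited table, 4 with the mean of probes, 7 with median scaling and 4 with the trend. Genes higher at 8 h against 4 h (7) numbered 17 without background correction, 21 in the deposited table, 4 with median scaling and 17 with the trend. Genes higher at 24 h against 8 h (3) numbered 5 in the deposited table and 1 with median scaling. At 24 h against 4 h, 9 were higher with median scaling (17), and those lower (1) numbered 2 without background correction, 3 in the deposited table, 2 with the mean of probes, 6 with median scaling and 2 with the trend.

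With 1 array left out, genes higher and lower against DMSO ranged over 0 to 3 and 0 to 0 at 4 h (0 higher without DMSO array B, 1 without 4 h array A), 19 to 27 and 0 to 1 at 8 h, and 21 to 26 and 2 to 3 at 24 h. The ranges were 3 to 7 and 0 to 0 at 8 h against 4 h, 2 to 3 and 4 to 8 at 24 h against 8 h, and 12 to 17 and 1 to 1 at 24 h against 4 h.

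The array letters as a replicate block gave 3 higher and 0 lower at 4 h, 29 and 0 at 8 h and 26 and 2 at 24 h against DMSO, 5 and 0 at 8 h against 4 h, 4 and 7 at 24 h against 8 h and 18 and 1 at 24 h against 4 h. Deviations of same-letter arrays correlated at -0.0846 to 0.193 over 18 pairs, and those of arrays with other letters at -0.206 to 0.117. For 7 of the 12 arrays, the best match in another group had their own letter. The labels do not say whether the letters mark pairs, and they were not used as pairs in the main fit. Dim probes such as that of MKI67, detected on 9 of 12 arrays, limit what could be measured.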
